A study of Mus musculus with 4 samples.

Results

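The 46 genes described here encode the proteins that license DNA for replication and run the replication fork, with the enzymes and regulators of S phase around them. They were a list of named genes, found on the array as non-control probes whose gene name is one of the 46. All 46 were found, with 58 probes, among 36282 genes and transcripts on the array, and each gene is represented by its brightest probe by mean log2 signal. Their RNA level was compared between stem cells and non-stem cell epithelia of the submandibular gland, a salivary gland. Both were isolated with a flow cytometer from C57BL/6 mice aged 8 to 10 weeks. Each group has 2 one-colour arrays. The labels name no treatment, transgene or altered allele in either group, and they do not say on which markers the cells were gated. Nothing in the labels says whether the 2 samples of a group came from separate animals or sorts, so every p-value below reflects the spread between these samples alone, and that spread may be technical.

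A cell prepares to copy its DNA by loading a ring of 6 proteins, Mcm2 to Mcm7, onto each replication origin, with the help of Cdc6 and Cdt1, and geminin blocks loading once S phase has begun. The ring becomes the active helicase when Cdc45 and the GINS complex join it, and primase, DNA polymerases, the sliding clamp PCNA and its loader then copy the opened strands. The transcription factor E2F1 and its relatives switch on many of these genes before S phase, so their RNA is known to be high in cycling cells and low in resting ones. The adult salivary gland is known as a slowly renewing tissue.

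Signals are given as log2 of the background-corrected signal relative to the array's own 75th percentile, and differences as stem cells minus non-stem cell epithelia on that scale with the standard error (SE) of the limma fit over 2 arrays per group. A gene was tested where 2 or more of the 4 arrays read its probe well above background, and called where its limma p-value, adjusted by the Benjamini-Hochberg method over all 17344 genes tested, was below 0.05. Of the 46 genes, 40 were tested and 35 of them were above background on all 4 arrays. The 6 that were not tested are Mcm8, Cdc6, Cdc45, Pola2 and Ccne2, which were well above background on no array, and Rfc3, which was so on stem cells replicate 1 alone. Among the tested genes, Mcm9 was above background on 1 array of each group, Tyms on both non-stem arrays and neither stem cell array, and Gins2, E2f1 and Chaf1a on both stem cell arrays and 1 non-stem array.

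The 4 arrays lay on 1 slide, with stem cells in positions 1 and 2 and non-stem cell epithelia in positions 3 and 4, so position and group cannot be told apart. The array's 75th percentile of signal was 30.4 and 43.3 for stem cells against 74.8 and 63.0 for the other epithelia, and 35.7% to 42.3% of non-control spots were well above background. Added spike-in controls stood 2.25 higher (log2, median of 7) in stem cells after the percentile shift. Of the 40 tested genes, 2 (Uhrf1 and Pole) differed by more than that, so on a scale set by the spike-ins the other 38 would lie lower in stem cells. Nearly all genes would do so too, as the mitosis gene Birc5, at 2.23, had rank 292 by rise among the 17344 tested. All directions below are therefore relative to the bulk of the sample's own signal, whose median difference over the 17344 tested genes was -0.01. Over all 36282 genes, with no filter on dim probes, the median was 0.43. Dim signals thus tended to read higher in stem cells on this scale. Whether cells were fewer in a phase of the cycle or carried less RNA per cell cannot be told apart in such bulk samples.

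Lists of cell type markers were read in both groups, and they do not test the stem cell label. Over all 17344 genes tested, 14.1% rose and 16.8% fell, so 1 rise among a few tested genes of a list below says little. Of 8 basal and myoepithelial genes 4 rose in stem cells, all of them keratin genes, among them Krt14 and Krt5 by 3.16 ± 0.16 and 3.15 ± 0.20 (SE). The basal regulator gene Trp63 (0.55) and the myoepithelial genes Acta2, Cnn1 and Myh11 (-0.11, -0.37 and -0.21) were not called. Of 8 acinar genes 7 fell, and Aqp5, a water channel gene, fell by 3.19 ± 0.16. All 8 general epithelial genes were above background on all 4 arrays. Of these 5 rose (Krt7, Krt8, Krt18, Krt19 and Cldn4, from 0.58 to 2.51), Cdh1 and Cldn7 were not called, and Epcam fell by 1.23 ± 0.19. Of 6 listed erythroid genes 5 are on the array and 4 were tested, and all 4 fell, with a summed log2 signal of 5.45 to 5.48 for stem cells against 7.50 to 7.82 for the other epithelia. Of 9 leukocyte genes 5 were tested and 1 rose, Itgam, at 0.86 ± 0.19, with a summed signal of 6.09 to 6.47 for stem cells against 5.46 to 5.64 for the other epithelia, while Ptprc, which marks all white blood cells, was well above background on no array. Of 8 endothelial genes 3 were tested and 1 rose (summed signal 3.96 to 4.06 for stem cells against 3.41 to 3.53 for the other epithelia), and Cdh5, Emcn, Esam and Tie1 were above background on no array. Of 6 fibroblast genes 2 were tested and 1 rose, Dcn (summed signal 4.45 to 4.56 for stem cells against 3.19 to 3.29 for the other epithelia), with Col1a1, Pdgfra and Lum above background on no array. The part of these other cells in the results below was not tested.

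The DNA just before the start sites of these genes is shown first, because E2F sites there are the textbook means by which licensing genes are switched on together. RefSeq windows of 300 bases (250 before to 50 after each start site, build GRCm38.p6) were found for 37 of the 46 genes. They were searched on both strands for the E2F site in its 4 forms TTTCCCGC, TTTCGCGC, TTTGCCGC or TTTGGCGC. At least 1 form lay in a window of 14 of the 37 genes (37.8%), and in 14 of their 43 windows (32.6%), against 2.26% of all 32851 windows in the table and 2.85% of the 21263 windows of protein-coding genes. It was found in 9 of the 19 genes with a window that rose in stem cells, in 2 of 13 that were tested and not called, and in 3 of 5 that were not tested. The simpler CCAAT box was in 62.2% of these genes against 41.1% of all genes with a window, and the GC box word GGGCGG in 78.4% against 38.2%. Counted over windows, CCAAT was in 58.1% of theirs against 38.2% of those of protein-coding genes, and the GC box in 74.4% against 46.2%. A form of the E2F site that overlaps GGGCGG was counted for both. These matches describe letters and not bound sites, and binding was not measured.

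Of the 8 genes with an E2F word before the start site, 6 are shown, on the gene's own strand from 5′ to 3′ and with the matching letters in capitals. Mcm5, Mcm6, Mcm7 and Pola1 rose in stem cells, Gins3 was tested and not called, and Cdc6 was above background on no array, so the word stood before genes of all 3 outcomes.
Mcm5, chr8:75109332-75109391, plus strand: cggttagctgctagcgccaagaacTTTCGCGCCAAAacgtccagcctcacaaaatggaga
Mcm6, chr1:128359735-128359825, minus strand: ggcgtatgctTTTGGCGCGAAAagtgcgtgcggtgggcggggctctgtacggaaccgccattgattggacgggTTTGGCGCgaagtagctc
Mcm7, chr5:138172015-138172074, minus strand: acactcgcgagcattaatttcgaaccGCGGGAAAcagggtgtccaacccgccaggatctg
Pola1, chrX:93632260-93632319, minus strand: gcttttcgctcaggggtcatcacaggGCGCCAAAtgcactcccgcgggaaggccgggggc
Gins3, chr8:95633492-95633551, plus strand: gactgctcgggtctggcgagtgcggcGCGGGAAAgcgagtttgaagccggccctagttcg
Cdc6, chr11:98907987-98908046, plus strand: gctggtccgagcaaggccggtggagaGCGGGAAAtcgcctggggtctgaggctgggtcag
The 12 capital letters of Mcm5, and the first run of Mcm6, read as an E2F word on each strand, and the second run of Mcm6 lies 40 to 47 bases before the start. In Mcm3 and Cdt1 the words lay after the start site, and none of the words was found in the windows of Mcm2, Mcm10, Pcna, E2f1 or Chaf1b.

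Relative to the array's own signal, many genes of the replication machinery were higher in stem cells of the gland than in the other epithelia. Of the 40 genes tested, 23 rose in stem cells, or 57.5%, against 14.1% of all 17344 genes tested, and none fell, against 16.8% of all genes. The list was chosen with earlier results of these data known, so this excess is not independent of them. The median difference was 0.73 over the 40 genes and -0.01 over all 17344 tested. Limited to the 35 genes above background on all 4 arrays, 21 rose, against 14.5% of the 14367 genes so measured. In 31 of the 40 both stem cell arrays lay above both non-stem arrays, which was so for 34.7% of all genes. The largest rises were those of Uhrf1 (5.43-fold), Pole (4.86-fold), Mcm3 (3.56-fold), Chaf1b (3.31-fold) and Mcm10 (3.30-fold). Of the 40 genes, 35 lay above 0 here, against 49.4% of all genes. With quantile normalization the number was 35. It was also 35 with the deposited values, whose differences correlated at 1 with those used here, so they add no separate check. The number was 36 with the 75th percentile over detected probes. With normexp background correction, which here includes an added offset of 50, it was 32. With normexp the median was 0.33 and 2 genes were called lower. On the spike-in scale given above, 2 of the 40 lay above 0. The number of genes that rose depended on the non-stem arrays: it was 13 (32.5%, against 5.81% of all genes) without non-stem replicate 1 and 11 (27.5%, against 4.01%) without non-stem replicate 2, where the spread comes from the stem cell arrays alone and the lone non-stem array is assumed to vary like them. With no filter on dim probes it was 6 of 46 at 36282 genes tested (Mcm3, Mcm6, Mcm10, Pole, Uhrf1 and Chaf1b), against 2.32% of all genes. There the median difference was 0.74 over the 46 genes against 0.43 over all 36282. Mcm3, Mcm5, Mcm6, Mcm10, Pole, Tk1, E2f1, Uhrf1 and Chaf1b, 9 of the 23, stayed below 0.05 whichever array was left out.

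**Figure D1:**
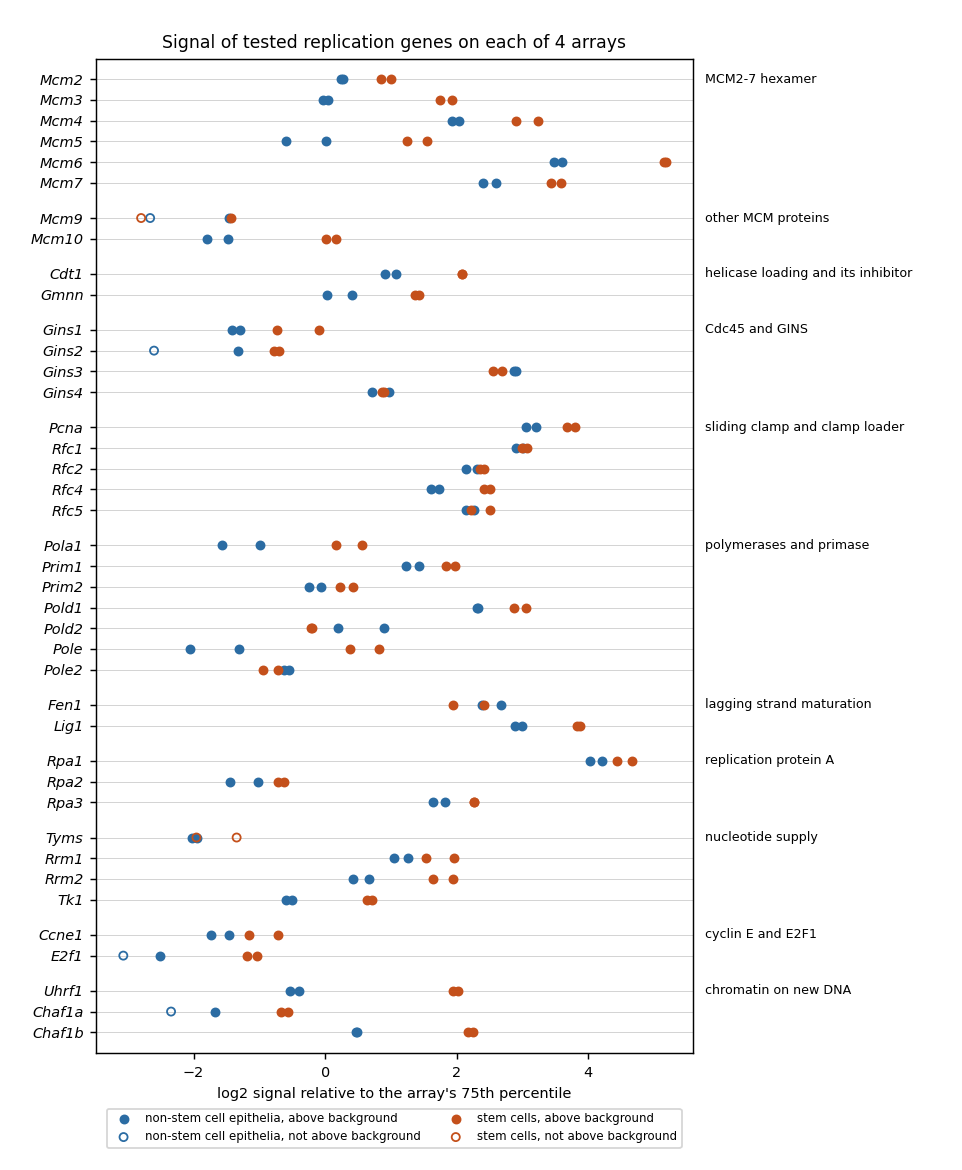
Each row is 1 of the 40 tested genes, grouped by role, and each point is its log2 signal on 1 array relative to that array's 75th percentile, orange for stem cells and blue for non-stem cell epithelia, open where not well above background. In 31 rows both orange points lie right of both blue points, and in Gins3, Pold2 and Pole2 both lie to the left. Levels of different genes come from different probes and cannot be set against each other.

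All 6 genes of the Mcm2 to Mcm7 ring rose. Mcm3 stood at 1.93 and 1.75 for stem cells against 0.05 and -0.03 for the other epithelia, a rise of 1.83 ± 0.16 (SE) or 3.56-fold (adjusted p = 0.00134 by limma). The scanner files place its probe at bases 20793136 to 20793195 of chromosome 1 (build mm9). Mcm6 stood at 5.15 and 5.18 for stem cells against 3.61 and 3.48 for the other epithelia, a rise of 1.62 ± 0.15 or 3.07-fold (adjusted p = 0.00171). In both genes the arrays of a group lay close together beside the gap between the groups. Mcm5 was more spread, at 1.25 and 1.55 for stem cells against -0.60 and 0.02 for the other epithelia, and rose by 1.69 ± 0.26 or 3.23-fold.

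The other ring genes had smaller estimates. Mcm4 went from 2.04 and 1.93 in non-stem cell epithelia to 2.90 and 3.24 in stem cells (1.09 ± 0.18), and Mcm7 from 2.40 and 2.61 to 3.44 and 3.58 (1.01 ± 0.17). Mcm2 had the smallest rise of the 6, 0.66 ± 0.16 or 1.58-fold, from 0.28 and 0.24 to 1.00 and 0.84. The 95% interval was 0.27 to 1.05 for Mcm2 and 1.43 to 2.23 for Mcm3, and the difference between ring subunits was not tested. The calls of Mcm2, Mcm4 and Mcm7 were lost without either non-stem array, and that of Mcm2 also without stem cells replicate 1 (limma adjusted p over the 4 fits 0.0169 to 0.144 for Mcm2, 0.000145 to 0.0867 for Mcm4 and 0.000872 to 0.0691 for Mcm7). With normexp background correction Mcm2 was at 0.26 (adjusted p = 0.16).

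Among the relatives outside the ring, Mcm10, which helps to activate the helicase and to bring in polymerase alpha, rose by 1.72 ± 0.18 (SE) or 3.30-fold, at 0.16 and 0.01 for stem cells against -1.48 and -1.80 for the other epithelia (adjusted p = 0.00241 by limma). Mcm8 and Mcm9, which form a separate complex used in recombination, gave no usable contrast. Mcm9 stood at -2.80 and -1.44 against -2.66 and -1.46, a spread within each group of over 1 on the log2 scale, and its difference of -0.06 ± 0.56 had an interval of -1.47 to 1.35. A second Mcm9 probe and both Mcm8 probes were above background on no array.

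Of the loading factors, Cdt1, which brings the ring to the origin, and Gmnn, which encodes its inhibitor geminin, both rose. Cdt1 stood at 2.09 and 2.09 for stem cells against 1.07 and 0.92 for the other epithelia (1.09 ± 0.16, 2.13-fold, adjusted p = 0.00614, limma, n = 2 arrays per group). Gmnn stood at 1.43 and 1.37 for stem cells against 0.41 and 0.03 for the other epithelia (1.18 ± 0.19, 2.27-fold). For each, both stem cell arrays lay above both non-stem arrays. Without non-stem replicate 2 the adjusted p was 0.061 for Cdt1 and 0.064 for Gmnn, and 0.042 or less without any other array. Cdc6, the ATPase that loads the ring with Cdt1, was above background on no array with either of its 2 probes.

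Cdc45 and the GINS complex, which complete the helicase, had 1 called gene among the 4 tested. Gins1 rose by 0.94 ± 0.24 (SE) or 1.92-fold, at -0.73 and -0.10 for stem cells against -1.41 and -1.30 for the other epithelia. Gins2 stood at -0.70 and -0.79 for stem cells against -2.60 and -1.32 for the other epithelia, where the lower non-stem value was not well above background, and its difference of 1.22 ± 0.41 did not pass (adjusted p = 0.0755 by limma). It passed without either stem cell array, without non-stem replicate 2 (adjusted p over the 4 fits 0.00195 to 0.141), with normexp (0.51, adjusted p = 0.032), with the intensity trend (0.0022) and with the replicate block (0.012). Gins3 stood at 2.68 and 2.55 against 2.90 and 2.88 (stem cells first) and Gins4 at 0.89 and 0.86 against 0.71 and 0.98, with differences of -0.27 ± 0.15 and 0.03 ± 0.17 and intervals of -0.65 to 0.11 and -0.39 to 0.45. The call of Gins1 was lost without either non-stem array (adjusted p over the 4 fits 0.000138 to 0.163) and with quantile normalization (adjusted p = 0.073). With normexp, Gins3 was lower in stem cells (-0.60, adjusted p = 0.0066). Cdc45 was above background on no array.

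**Figure D2:**
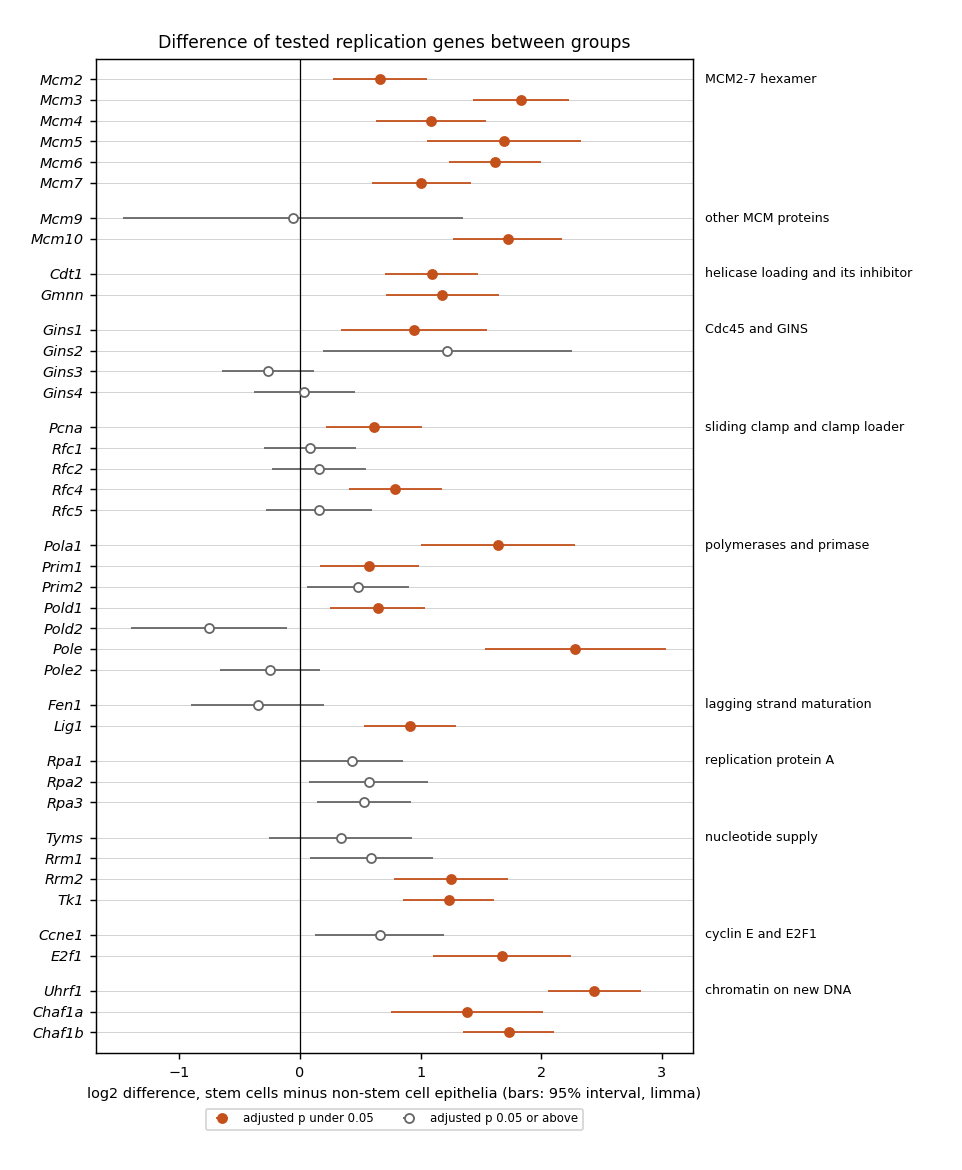
The log2 difference, stem cells minus non-stem cell epithelia, is plotted for the 40 tested genes by role, with 95% intervals from limma as bars, filled where the adjusted p was below 0.05. The 23 filled points all lie right of 0, from 0.57 in Prim1 to 2.44 in Uhrf1, and 5 open points lie left of 0.

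The sliding clamp rose, and its loader for the most part did not pass the test. Pcna, whose ring holds polymerases on the DNA, stood at 3.67 and 3.81 for stem cells against 3.20 and 3.05 for the other epithelia (0.61 ± 0.16, 1.53-fold, adjusted p = 0.0372, limma). Its call was kept without stem cells replicate 1 and lost without each of the other arrays (adjusted p over the 4 fits 0.0317 to 0.187), and with normexp its difference was 0.15 (adjusted p = 0.51). Of the clamp loader genes Rfc1 to Rfc5, Rfc4 rose by 0.79 ± 0.16 (SE), at 2.41 and 2.51 for stem cells against 1.74 and 1.60 for the other epithelia. A second Rfc4 probe, above background on all 4 arrays, gave a difference of 0.19, and with the mean of both probes the call was lost (0.49, adjusted p = 0.068). The call was also lost without either non-stem array (adjusted p over the 4 fits 0.00805 to 0.112).

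The large subunit gene Rfc1 had overlapping groups, at a mean of 3.03 for stem cells against 2.95. Rfc2 stood at 2.35 and 2.42 against 2.15 and 2.31 and Rfc5 at 2.22 and 2.51 against 2.27 and 2.14, stem cells first. Their differences of 0.08 ± 0.15, 0.16 ± 0.16 and 0.16 ± 0.17 had intervals of -0.30 to 0.46, -0.24 to 0.55 and -0.28 to 0.59, so that rises above 0.59 lie outside all 3. Rfc3, above background on stem cells replicate 1 alone, was not tested.

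Each of the replicative polymerases had a catalytic subunit gene that rose. Pole, which encodes the catalytic subunit of the leading strand polymerase epsilon, stood at 0.38 and 0.82 for stem cells against -1.31 and -2.06 for the other epithelia, a rise of 2.28 ± 0.30 (SE) or 4.86-fold (adjusted p = 0.00486 by limma). The probe covers bases 110766375 to 110766434 of chromosome 5 (mm9). Both stem cell arrays lay above both non-stem arrays, and a further 2 Pole probes were above background on no array. Pola1, the catalytic subunit gene of polymerase alpha, which starts each new strand, rose by 1.64 ± 0.26 or 3.12-fold, at 0.17 and 0.56 for stem cells against -0.99 and -1.57 for the other epithelia. Its call was lost without non-stem replicate 2 (adjusted p = 0.059, range over the 4 fits 1.23e-06 to 0.0587). Pold1, that of the lagging strand polymerase delta, rose by 0.64 ± 0.16 or 1.56-fold. Its values were 2.87 and 3.06 against 2.31 and 2.33, and the call was kept in 1 of the 4 fits without an array (adjusted p 0.0188 to 0.147).

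The accessory subunit genes Pold2 and Pole2 were not called. Pold2, of polymerase delta, stood at -0.21 and -0.20 for stem cells against 0.20 and 0.90 for the other epithelia, and its difference was -0.75 ± 0.26 (adjusted p = 0.0775 by limma, interval -1.40 to -0.11). Both stem cell arrays lay below both non-stem arrays, and Pold2 was called lower without either stem cell array (adjusted p = 0.029 without replicate 1 and 0.026 without replicate 2), without non-stem replicate 1 (0.046), with the filter on all 4 arrays (0.024), with the intensity trend (0.0036) and with the replicate block (0.041). The range over the 4 fits without an array was 0.0261 to 0.269. Pole2, of polymerase epsilon, stood at -0.72 and -0.95 against -0.62 and -0.55, with a difference of -0.25 ± 0.16 and an interval of -0.66 to 0.16. The difference between subunits of an enzyme was not tested. Pola2 was above background on no array. Of the primase genes, Prim1 rose by 0.57 ± 0.16, close to the threshold (adjusted p = 0.0488), and its call was kept in 1 of the 4 fits without an array (adjusted p 0.0441 to 0.226). Prim2 had a difference of 0.48 ± 0.17 (adjusted p = 0.0836).

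Of the 2 lagging strand genes, Lig1, the ligase that seals the fragments, rose by 0.91 ± 0.15 (SE) or 1.88-fold, at 3.87 and 3.83 for stem cells against 2.99 and 2.88 for the other epithelia (adjusted p = 0.01 by limma). Fen1, the nuclease that trims them first, stood at 1.95 and 2.42 for stem cells against 2.67 and 2.39 for the other epithelia, with overlapping groups and a difference of -0.35 ± 0.22 (interval -0.90 to 0.20). The call of Lig1 was lost without either non-stem array (adjusted p over the 4 fits 0.00303 to 0.0821), and with normexp Fen1 was lower in stem cells (-0.59, adjusted p = 0.027).

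None of the 3 genes of replication protein A, which coats single-stranded DNA, passed the test. Rpa1 stood at 4.44 and 4.66 against 4.20 and 4.03, Rpa2 at -0.72 and -0.62 against -1.45 and -1.02 and Rpa3 at 2.26 and 2.27 against 1.82 and 1.64, stem cells first. In all 3 both stem cell arrays lay above both non-stem arrays, and the differences of 0.43 ± 0.17, 0.57 ± 0.20 and 0.53 ± 0.16 had intervals above 0 but limma adjusted p of 0.11, 0.0808 and 0.0528. Rpa3 passed with quantile normalization, with the percentile over detected probes, with the filter on all 4 arrays and with the intensity trend (adjusted p = 0.030, 0.025, 0.025 and 0.0062). Rpa1 passed with quantile normalization, with the percentile over detected probes and with the intensity trend (adjusted p = 0.0473, 0.0376 and 0.00908), and Rpa2 with the filter on all 4 arrays (0.0338). A second Rpa1 probe, above background on all 4 arrays, gave a difference of 0.01.

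Of the genes that supply nucleotides, Rrm2 and Tk1 rose. Rrm2 encodes the regulated subunit of ribonucleotide reductase, and stood at 1.63 and 1.95 for stem cells against 0.66 and 0.42 for the other epithelia (1.25 ± 0.19, 2.38-fold, adjusted p = 0.00752, limma). Its constant partner Rrm1 stood at 1.54 and 1.96 for stem cells against 1.05 and 1.26 for the other epithelia, a difference of 0.59 ± 0.21 that did not pass (adjusted p = 0.0805). Tk1, the thymidine kinase of S phase, rose by 1.23 ± 0.15 or 2.35-fold, at 0.64 and 0.71 for stem cells against -0.51 and -0.60 for the other epithelia. The arrays of a group lay close together for Tk1. Tyms, the thymidylate synthase, stood at -1.35 and -1.96 for stem cells against -2.03 and -1.95 for the other epithelia, with overlapping groups, and was well above background on neither stem cell array, so it has no fold here. It was called without stem cells replicate 2 (0.64, adjusted p = 0.039). The call of Rrm2 was lost without non-stem replicate 2 (adjusted p = 0.070, range over the 4 fits 3.54e-05 to 0.07), and Rrm1 was called without stem cells replicate 1 (0.80, adjusted p = 0.011).

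E2f1, the transcription factor that switches on many genes of the list, rose by 1.67 ± 0.23 (SE) or 3.19-fold, at -1.19 and -1.04 for stem cells against -2.51 and -3.07 for the other epithelia (adjusted p = 0.0055 by limma), with 1 of the non-stem values not well above background. Ccne1, the cyclin that drives entry into S phase with Cdk2, had a difference of 0.66 ± 0.21 (adjusted p = 0.067), at -0.72 and -1.16 for stem cells against -1.73 and -1.47 for the other epithelia. Without stem cells replicate 2 it passed, at 0.88 (adjusted p = 0.0054, range over the 4 fits 0.00539 to 0.262). Ccne2 was above background on no array.

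The 3 genes that restore chromatin on new DNA all rose, and Uhrf1 had the largest difference of the 40. Uhrf1, which recognises hemimethylated DNA behind the fork and brings the maintenance methyltransferase to it, stood at 2.01 and 1.94 for stem cells against -0.40 and -0.53 for the other epithelia. This is a rise of 2.44 ± 0.15 (SE) or 5.43-fold (adjusted p = 0.000537 by limma), and the probe covers bases 56462770 to 56462829 of chromosome 17 (mm9). A second Uhrf1 probe was above background on no array. Chaf1b, a subunit of the chromatin assembly factor that places histones on new DNA, stood at 2.17 and 2.25 for stem cells against 0.47 and 0.49 for the other epithelia (1.73 ± 0.15, 3.31-fold). A second Chaf1b probe, above background on all 4 arrays, gave a difference of 1.21, and a second Mcm3 probe gave 1.73. Its partner Chaf1a rose by 1.39 ± 0.25 or 2.61-fold, at -0.68 and -0.57 for stem cells against -2.34 and -1.68 for the other epithelia, with the lower non-stem value not well above background. Its call was lost without non-stem replicate 1 (1.05, adjusted p = 0.052, range over the 4 fits 7.05e-05 to 0.0521). Dnmt1, the maintenance methyltransferase itself, had a difference of 0.40 ± 0.15 (adjusted p = 0.1).

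Other replication genes, a list of 41 that are not among the 46, had fewer calls. Of the 31 tested, 6 rose and 2 fell, or 19.4% rising, near the 14.1% of all genes, with a median of 0.27. Timeless, of the complex that protects the fork, rose by 1.99 ± 0.18 (SE), the histone chaperone gene Asf1b by 1.57 ± 0.17 and Chtf18, of an alternative clamp loader, by 1.33 ± 0.22. Nasp, Mcmbp and Atad5 rose by 0.78, 0.61 and 1.11. Slbp, which binds the ends of histone RNAs, had a difference of -0.72 ± 0.19 and fell (adjusted p = 0.0378 by limma), with the signal of stem cells replicate 1 not well above background. The number that fell was 0 without either non-stem array, so this call was lost there. The number that rose was 2 without either non-stem array, and the call of Chtf18 was lost there (adjusted p = 0.064 without replicate 1 and 0.088 without replicate 2, n = 2 stem cell arrays, limma).

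The origin recognition complex is the platform on which the Mcm ring is loaded. Of Orc1 to Orc6, 5 were tested, none rose and 1 fell, against 14.1% rising and 16.8% falling among all genes. Counts over 5 genes cannot be set apart from those shares. Orc5 stood at -2.15 and -1.67 for stem cells against -0.95 and -0.41 for the other epithelia, with the signal of stem cells replicate 1 not well above background, a difference of -1.23 ± 0.26 (adjusted p = 0.021 by limma), which was -0.15 with normexp (adjusted p = 0.45) and not called without either non-stem array (0.051 and 0.13). Orc2, Orc3, Orc4 and Orc6 had differences of 0.30, 0.13, 0.14 and 0.35, with adjusted p from 0.18 to 0.748. Orc1, the subunit whose gene is regulated in the cycle, was above background on no array.

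Genes of mitosis, which follows replication in the cycle, also rose among those measured. Of 25 listed, 12 were tested and all 12 rose, against 14.1% of all genes, with a median of 2.11. But 13 did not pass the filter on dim probes, and a gene that passes it only where it is high must differ. Ccnb1, Plk1 and Kif20a passed it on the stem cell arrays alone, and 8 of the 12 were above background on all 4 arrays. Mki67, found in all cycling cells, stood at 2.52 and 2.41 for stem cells against -0.05 and 0.09 for the other epithelia (2.45 ± 0.16, SE). Birc5 rose by 2.23 ± 0.17 and Prc1 by 2.64 ± 0.26, with 1 non-stem value of Prc1 not above background. Plk1, on both non-stem arrays not well above background, was higher in stem cells by at least 3.59-fold. That bound sets the stem cell mean against the mean, over the non-stem arrays, of the higher of the probe's signal and the lowest signal well above background. Cdk1, which drives mitosis, was above background on no array, and Top2a on 1 stem cell array alone.

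**Figure D3:**
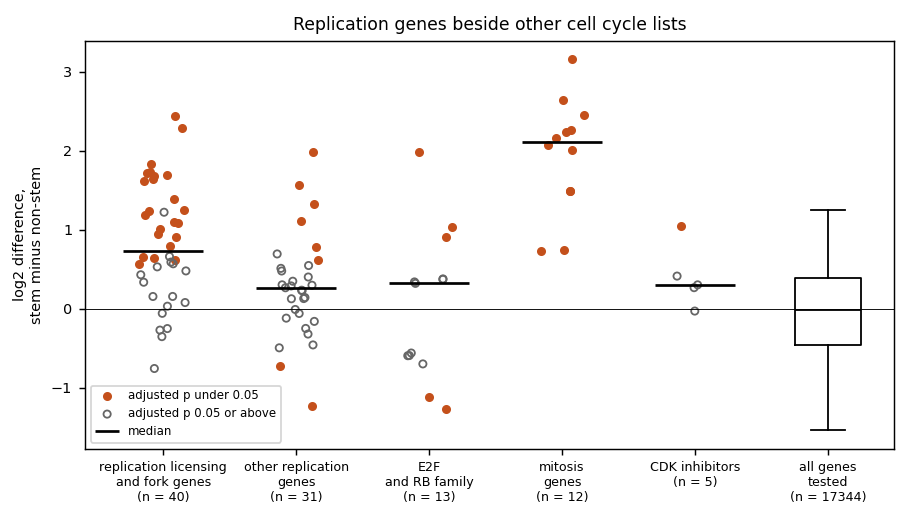
The log2 difference, stem cells minus non-stem cell epithelia, is shown for each tested gene of 5 lists, filled where the adjusted p was below 0.05, with a bar at the median, beside a box plot of all 17344 genes (box at the quartiles, whiskers at the 5th and 95th percentiles). The medians are 0.73 for the replication licensing and fork genes, 0.27 for the other replication genes, 0.32 for the E2F and RB family, 2.11 for the 12 tested mitosis genes and 0.30 for the CDK inhibitors. Of the mitosis genes, Ccnb1, Plk1 and Kif20a passed the filter on dim probes on the stem cell arrays alone.

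The rises were smaller with normexp background correction, which was run with an offset of 50 added to every signal. The 75th percentile of processed signal was 30.4 and 43.3 for stem cells against 74.8 and 63.0 for the other epithelia. An offset of that order shrinks log2 differences of dim probes. Its part and that of the correction were not tested apart. With normexp the 23 called genes, which were picked for rising in these same data, ranged from 0.15 to 1.23. Of these, 22 were lower by over 1.5 times, and 18 kept their call. Of all 40 tested genes, 32 lay above 0 with normexp, against 35 here, and 2 were called lower. Normexp moved the genes tested by a median of -0.28 and the 40 replication genes by -0.48, and 25.2% of its calls over all genes were rises, against 45.7% here. Taking the 75th percentile over detected probes moved both by 0.14, and 59.4% of its calls were rises. Measured from the median difference of all genes, 33 of the 40 lay higher with normexp and 35 with the percentile over detected probes.

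**Figure D4:**
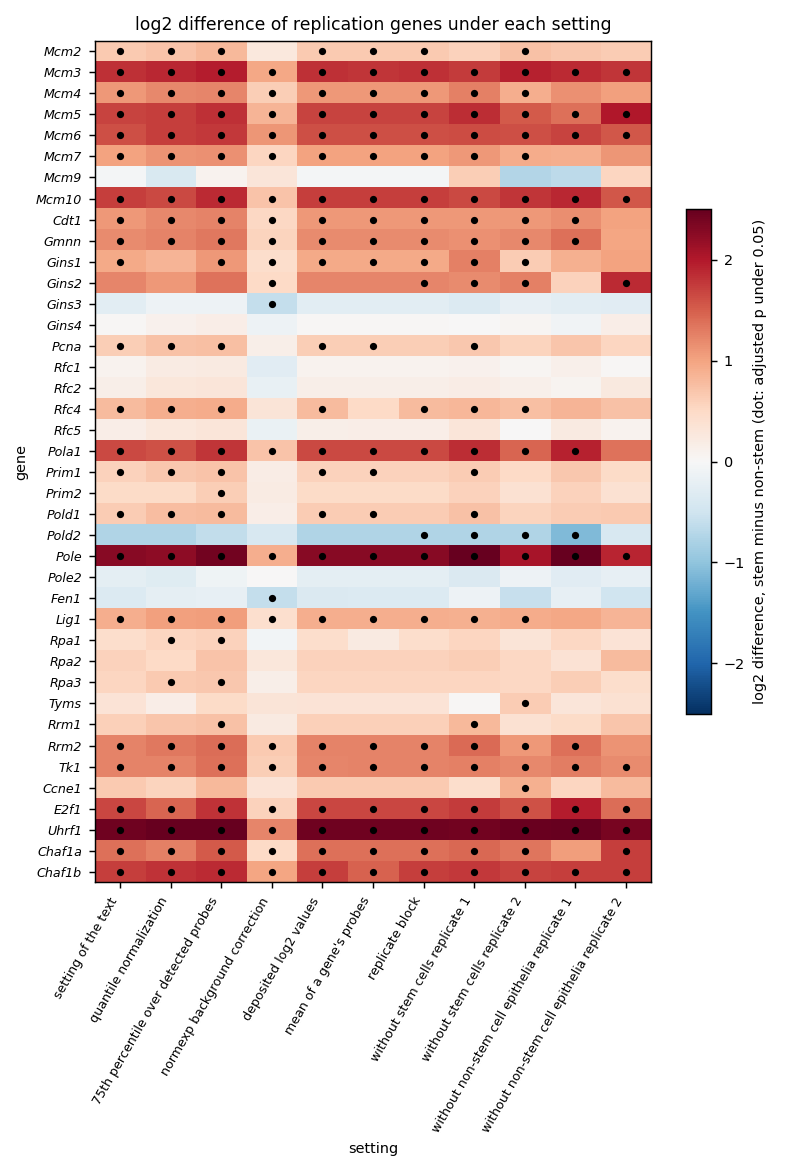
Colour gives the log2 difference, stem cells minus non-stem cell epithelia, of each of the 40 tested genes (rows) under the setting of the text and 10 others (columns), and a dot marks an adjusted p below 0.05. The columns are the other normalizations, normexp, the deposited values, the mean of a gene's probes, the replicate block and each array left out; the filters on dim probes, the intensity trend and the crossed block are not drawn. Uhrf1, Chaf1b, Pole, E2f1, Tk1, Mcm3, Mcm5, Mcm6 and Mcm10 carry a dot in every column drawn (without a filter on dim probes Mcm5, Tk1 and E2f1 were not called), while Rfc1, Rfc2, Rfc5, Gins4 and Pole2 carry none.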

How the data were processed

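RNA of 2 samples per group was hybridised to one-colour Agilent mouse arrays. The files as deposited give each spot's intensity (linear), background-subtracted by Feature Extraction 10.7.3.1 per the file headers (9.1 per the submitters' processing notes). The log2 of this processed signal, less the 75th percentile of the array's probes other than controls, was used here. The deposited series table holds log2 values, with column medians of -0.28 and -0.55 for stem cells against -0.83 and -0.76 for the other epithelia. Its centring is not stated. It served as an alternative, but its differences correlated at 1 with the scanner ones across probes, so it is not independent of them.

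Outlier-flagged spots were left out, spots of a probe averaged and each gene represented by its brightest probe. A two-sided moderated test (limma 3.58.1 under R 4.3.3) was run on all 17344 genes above background on at least 2 arrays, after it was tested on simulated data. Genes were named from the array's own annotation, and of the 58 probes of the replication genes 53 had the same symbol in RefSeq and 5 had no match. Probe positions are those of the files (mm9); whether a probe lies in an exon's coding part or UTR was not analysed here. Promoter windows are RefSeq's on GRCm38.p6. The members and lists were chosen with earlier results of these data known. All 46 members were named, with the 4 tested genes of smallest p in each other list and some markers and the Orc genes by name. Further markers and Nasp, Mcmbp, Atad5, E2f2, Slbp, Dnmt1, Cdk1 and Top2a were named after their values were seen. Other normalizations, background corrections, filters, variance models, probe rules, blocks and left-out arrays were tried. The number of arrays limits the precision.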

Additional observations from a re-analysis of the deposited data

How the results depend on the processing

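None of the 23 called replication genes changed direction in the settings tried, but they were picked for rising in these same data. None of these settings used the spike-in scale, on which 2 of the 40 tested genes lay above 0. The counts over the 46 genes moved with the filter and with the non-stem arrays. Without a filter on dim probes 6 of them rose in place of 23, none of the other replication genes fell (0 in place of 2), and 1606 genes of all were called in place of 5369, with 36282 genes sharing the adjustment. The number of the 46 that fell was 0 in the text, 2 with normexp, and 1 with the filter on all 4 arrays, with the intensity trend and robust variances, and with the replicate block. Of the other replication genes 1 fell with the percentile over detected probes, with normexp and with the mean of a gene's probes. Leaving out each array in turn gave 11 to 24 of the 46 genes rising and 0 to 1 falling, 2 to 7 of the other replication genes rising and 0 to 2 falling, 9 to 11 mitosis genes rising (12 with all arrays), and 1616 to 6444 genes called in all. The causes were not tested. With the replicate block, which sets same-numbered samples as pairs, 21 of the 46 rose and 5335 genes were called in all. The calls of Pcna, Prim1 and Pold1 were lost with it (adjusted p = 0.065, 0.084 and 0.052). The deviations of same-numbered samples from their group means correlated at -0.10 across genes. With 2 arrays per group this cannot settle whether the numbers pair the samples. A crossed replicate block, chosen after seeing the data, gave 22 rising and 0 falling of the 46, 6 rising and 0 falling of the other replication genes, and 4554 calls in all. Signal over background limits the dim genes: 6 of the 46 could not be tested, and 5 of the 40 tested were not above background on every array.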

Other observations

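Of 15 genes of the E2F and RB family and their partners 13 were tested, of which 3 rose (23.1%, against 14.1% of all genes) and 2 fell (16.8% of all genes fell), with a median difference of 0.32. These shares are near those of all genes. Ccna2, the cyclin of S and G2 phase, stood at 0.01 and 0.83 for stem cells against -1.49 and -1.65 for the other epithelia, a rise of 1.99 ± 0.29 (SE, limma adjusted p = 0.0067), and its call was lost without either non-stem array (adjusted p = 0.053 and 0.070). Rbl1, which encodes the RB relative p107, rose by 0.91 ± 0.16 (call lost without either non-stem array, adjusted p = 0.073 and 0.082), and E2f2 rose by 1.04 ± 0.25. Cdk2, the kinase that cyclins E and A activate, stood at -0.83 and -0.83 for stem cells against 0.21 and 0.36 for the other epithelia, and fell by 1.11 ± 0.15 (adjusted p = 0.0057, and 0.058 without non-stem replicate 2). Cdc25a, the phosphatase that activates Cdk2, fell by 1.27 ± 0.17, from 2.17 and 1.97 to 0.71 and 0.90, and its call was kept whichever array was left out.

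Of 7 CDK inhibitor genes 5 were tested and 1 rose, near the 14.1% of all genes. Cdkn1c, which encodes the inhibitor p57, stood at 1.74 and 1.74 for stem cells against 0.71 and 0.68 for the other epithelia, a rise of 1.05 ± 0.15 (SE, limma adjusted p = 0.0061, and 0.059 without non-stem replicate 2). Cdkn1b, which encodes p27, had a difference of 0.30 ± 0.15 (adjusted p = 0.19).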
